A study of Mus musculus with 6 samples.

Results

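The apical membrane of the kidney's proximal tubule takes up filtered glucose, lactate, phosphate, sodium and amino acids through a small set of carriers. The mRNA of 10 of these carriers (Slc5a2, Slc5a1, Slc5a12, Slc34a1, Slc34a3, Slc9a3, Slc6a19, Slc3a1, Slc7a9 and Slc7a13), out of 28208 genes present in every matrix, was followed in single cells of 6 mouse kidneys. The genes were chosen by name, with earlier results of these data known. They were read in barcodes that held at least 2 UMIs (unique molecular identifiers, each standing for 1 captured mRNA molecule) of Lrp2 plus Cubn and 0 of Ptprc. Lrp2 and Cubn encode megalin and cubilin, the protein receptors of the proximal tubule brush border, and Ptprc encodes the pan-leukocyte antigen CD45. This rule kept 13090 of 45667 barcodes, called proximal tubule barcodes here. All 10 genes had UMIs in each of the 6 kidneys and passed the filter on low counts, Slc9a3 only through the transplanted kidneys.

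The kidneys formed 3 groups of 2. The naive kidneys were not transplanted and came from wild-type C57BL/6 (B6) mice aged 10 to 12 weeks. The rejecting kidneys were BALB/c kidneys from donors aged 6 to 7 weeks, placed into B6 recipients whose own kidneys had both been removed, and harvested 15 days after transplantation with no tolerance treatment. The tolerized kidneys were the same kind of graft, harvested on the same day, from recipients infused before and after surgery with BALB/c splenocytes that had been cross-linked with ethylenecarbodiimide (ECDI-SP). All are labelled male. Each kidney is 1 library. The p-values between groups rest on a spread between kidneys that was estimated from all 3 groups together and drawn towards a spread shared across genes. The naive and transplanted kidneys differ in strain, age and surgery and in the gene list of their matrices (28692 against 31053 genes). Their libraries also share few barcode sequences and differ in the lowest UMI total kept and in what the matrix headers name. These differences cannot be told apart.

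Reabsorption in the proximal tubule is driven by the basolateral sodium pump, which keeps cell sodium low so that apical carriers can couple sodium entry to solute uptake. The carriers are laid out along the length of the tubule. The early, convoluted part carries the high-capacity systems, and the late, straight part recovers what is left with systems of higher affinity. Loss of single carriers gives well-known disorders, among them renal glucosuria (Slc5a2), phosphate wasting (Slc34a1 and Slc34a3), Hartnup disorder (Slc6a19) and cystinuria (Slc3a1 and Slc7a9).

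Depth and cell mixture differed between libraries. Proximal tubule barcodes numbered 3036 and 2431 in the naive, 1854 and 817 in the rejecting, and 2789 and 2163 in the tolerized kidneys, and held 16294431 and 11733159, 12342242 and 6371756, and 31932224 and 37145835 UMIs in the same order. The median UMIs per barcode ran from 4401 to 5947 in the naive and rejecting kidneys and were 8742 and 13153 in the tolerized kidneys. The median mitochondrial share was 26.7% and 25.3% in the naive, 18.2% and 17.7% in the rejecting, and 15.4% and 22.7% in the tolerized kidneys. Both naive kidneys thus lay above all grafts. Just inside the rule lay 105 to 792 barcodes per kidney with exactly 2 UMIs of Lrp2 plus Cubn, and just outside it 130 to 1153 with 1. Other genes of proximal tubule identity (Gpx3, Miox and Slc27a2) had UMIs in all 6 kidneys. They also had UMIs in the barcodes of other segments described below, so their detection alone does not set these barcodes apart. The second tolerized kidney stood apart: its proximal tubule barcodes held 512 raw CPM (UMIs per 1000000 UMIs, unscaled) of 4 loop of Henle markers, against 27.2 to 195 in the other 5 kidneys. The 11 leukocyte markers summed to 52.9 and 98.4 raw CPM in the naive, 5384 and 5622 in the rejecting, and 5636 and 3811 in the tolerized kidneys, with 10 or 11 of the 11 detected in every kidney. Most of this was Cd74, the invariant chain of MHC class II. Of the barcode sequences, 111 occurred in both naive libraries, 18 to 35 in any pair of transplanted libraries, and 0 to 4 in a naive and a transplanted library. Y-linked Ddx3y lay between 38.6 and 52.5 raw CPM in all 6 kidneys and Xist at or below 0.243.

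RefSeq (GRCm38.p6) gave promoter sequence, from 250 bases before to 50 bases after the transcription start, for 7 of the 10 genes. Slc5a2, Slc5a12 and Slc7a13 had no entry. The promoters of Slc34a1, Slc6a19 and Slc3a1 are printed because these genes, of the 7, were called different between rejecting and naive kidneys; Slc9a3, also called, is set aside because it was near 0 in the naive kidneys. The RefSeq starts used for Slc34a1 and Slc6a19 lie inside the GENCODE gene bounds given further on. Capitals mark matches, on either strand, to CAAAGTCCA and CAAAGGTCA, letters bound by HNF4, and to TATAAA, a core promoter element read as TTTATA on the other strand.
Slc34a1 (chr13:55399398-55399697, plus strand): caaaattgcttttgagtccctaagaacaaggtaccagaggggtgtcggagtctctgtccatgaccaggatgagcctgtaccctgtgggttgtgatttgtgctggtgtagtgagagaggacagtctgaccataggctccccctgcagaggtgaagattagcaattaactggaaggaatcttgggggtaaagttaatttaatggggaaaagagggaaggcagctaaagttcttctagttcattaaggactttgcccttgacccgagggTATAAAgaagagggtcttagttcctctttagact
Slc6a19 (chr13:73692587-73692886, minus strand): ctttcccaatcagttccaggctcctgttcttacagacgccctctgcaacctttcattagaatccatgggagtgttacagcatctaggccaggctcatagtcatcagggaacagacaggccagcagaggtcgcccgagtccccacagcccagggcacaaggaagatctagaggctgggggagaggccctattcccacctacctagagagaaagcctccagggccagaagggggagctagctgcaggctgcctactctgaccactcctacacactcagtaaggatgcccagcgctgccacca
Slc3a1 (chr17:85028097-85028396, plus strand): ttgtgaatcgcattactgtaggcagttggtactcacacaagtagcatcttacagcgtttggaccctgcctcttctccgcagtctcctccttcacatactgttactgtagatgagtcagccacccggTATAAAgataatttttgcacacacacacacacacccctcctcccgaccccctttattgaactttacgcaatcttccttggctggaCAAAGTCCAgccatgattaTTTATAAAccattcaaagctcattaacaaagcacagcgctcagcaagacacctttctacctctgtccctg
The Slc34a1 promoter held TATAAA at 16 to 21 bases after the start. The Slc3a1 promoter held CAAAGTCCA at 39 to 31 bases before the start and TATAAA at 124 and 18 bases before it, the latter overlapping TTTATA. The Slc6a19 window held none of the 3 motifs. Among all 32851 mouse promoters of this length, 0.475% held CAAAGTCCA, 0.478% CAAAGGTCA and 13.6% TATAAA on either strand. Of the 7 genes with a promoter, 1 held CAAAGTCCA (Slc3a1), 0 CAAAGGTCA and 2 TATAAA (Slc34a1 and Slc3a1).

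The first question was whether these mRNAs marked the proximal tubule in each kidney. They were set against barcodes of 5 other classes (loop of Henle, distal convoluted tubule, principal, intercalated and endothelium), each with at least 2 UMIs of the markers of 1 class and 0 of Lrp2, Cubn and Ptprc. Of the 10 genes, 8 were higher in proximal tubule barcodes in 6 of 6 kidneys, while 18% of the 12598 genes tested showed that pattern. On the scale log2(raw CPM + 1) per kidney, the mean difference of these 8 ran from 3.92 ± 1.07 for Slc34a3 to 4.89 ± 1.83 for Slc5a12 (SD, n = 6 kidneys; exact sign-flip permutation test, two-sided, p = 0.03125, the smallest that 6 kidneys can give, and 0.03125 when adjusted over the 9 genes tested).

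Slc5a1 and Slc9a3 did not follow the other 8. Slc5a1, the high-affinity glucose carrier SGLT1, was lower in proximal tubule barcodes in 6 of 6 kidneys, by 1.60 ± 0.96 on the same log2 scale (exact p = 0.03125), a pattern shown by 38.5% of the genes tested. Its loop of Henle level was 184 and 120 raw CPM in the naive, 91.5 and 128 in the rejecting, and 72.1 and 125 in the tolerized kidneys. In proximal tubule barcodes it had 10.2 and 18.2 raw CPM in the naive, 28.0 and 37.5 in the rejecting, and 25.7 and 12.1 in the tolerized kidneys. The loop of Henle level was therefore above the proximal tubule level in every kidney. Slc9a3, the sodium-proton exchanger NHE3, was not tested across the 6 kidneys, because the naive proximal tubule barcodes held 7 and 1 of its UMIs and the naive barcodes of the other segments 1 and 0. In the transplanted kidneys it had 62.6 to 167 raw CPM in loop of Henle barcodes and 37.4 to 51.0 in proximal tubule barcodes.

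Transporter RNA was also counted in barcodes chosen by Ptprc alone, with no limit on Lrp2 or Cubn. Slc34a1 had 261 and 409 raw CPM in the Ptprc barcodes of the naive kidneys (at least 2 UMIs of Ptprc), 71.1 and 23.0 in those of the rejecting kidneys, and 57.0 and 166 in those of the tolerized kidneys. In proximal tubule barcodes its raw CPM ran from 2557 to 3219. The level in Ptprc barcodes was thus highest in both naive kidneys, followed by the second tolerized kidney. Barcodes with any Ptprc and at least 2 UMIs of Lrp2 plus Cubn numbered 9 and 12 in the naive kidneys. They numbered 245 and 52 in the rejecting and 192 and 182 in the tolerized kidneys. Their part in these levels was not tested. Slc7a13 showed 38.7 and 44.7 raw CPM in the Ptprc barcodes of the naive kidneys and 4.21 to 6.92 in those of the 4 grafts.

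**Figure D1:**
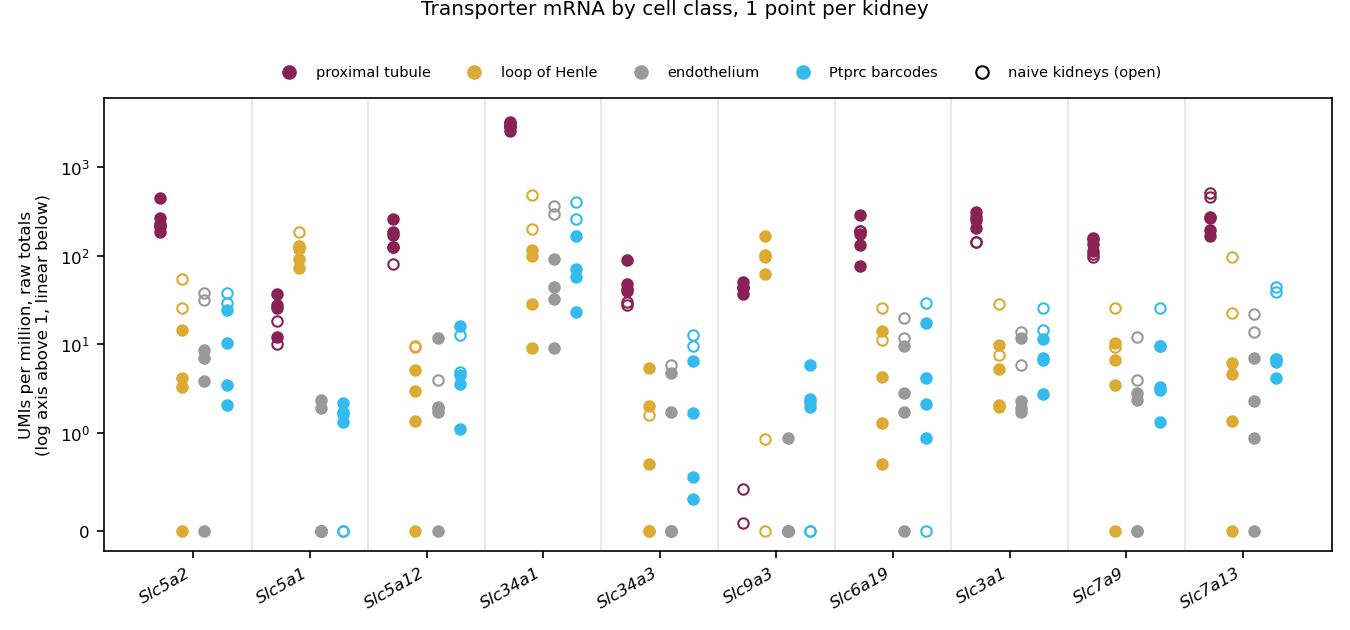
Raw CPM (vertical axis, logarithmic above 1 and linear below) of each transporter in 4 cell classes, 1 point per kidney, with naive kidneys as open circles. The proximal tubule points lie above the other 3 classes in every kidney for 8 genes, and the loop of Henle points lie highest for Slc5a1 in every kidney and for Slc9a3 in the 4 grafts.

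To compare barcodes of unequal depth, each was thinned to 1000 UMIs, and the share with at least 1 UMI was counted. At that depth Slc34a1 was found in 85.2% to 89.0% of proximal tubule barcodes, against 1.06% to 29.6% of Ptprc barcodes. The median depth before thinning was 4401 to 13153 UMIs in the former and 2522 to 6321 in the latter, of which the naive kidneys held 66 and 54. Unthinned, its share was 94.9% to 97.7% in proximal tubule barcodes. Slc7a13 was found in 30.3% and 27.7% of naive, 15.9% and 13.8% of rejecting, and 15.8% and 10.8% of tolerized proximal tubule barcodes, against 0.168% to 5.56% of Ptprc barcodes. Both naive kidneys thus lay above all 4 grafts. Slc3a1 went the other way, with 12.9% and 12.3% in the naive, 24.3% and 22.9% in the rejecting, and 21.8% and 16.1% in the tolerized kidneys, against 0.264% to 3.70% of Ptprc barcodes. Slc6a19 was found in 14.0% and 14.1% of naive, 5.88% and 10.3% of rejecting, and 12.6% and 21.7% of tolerized barcodes, against at most 4.55% of Ptprc barcodes. The mean number of the 10 genes found per thinned barcode lay between 1.78 and 1.89 in 5 kidneys and was 2.13 in the second tolerized kidney. In that kidney 35.8% of barcodes held 3 or more, against 19.5% to 25.7% elsewhere. Its share of barcodes with 0 of the 10 was also the largest, 8.13% against 5.2% to 7.17%. These shares cover counting error only and were not tested.

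Within a kidney the transporters split into sets found together and sets found apart. Barcodes with Slc5a2, the low-affinity glucose carrier of the early tubule, held Slc5a12 2.05 to 3.59 times as often as barcodes without it, Slc34a3 2.06 to 6.45 times and Slc6a19 1.92 to 3.52 times, in 6 of 6 kidneys each. They held Slc7a13, a carrier of the late straight segment, less often in 6 of 6 kidneys: 8.63% against 34.7% and 9.55% against 31.3% in the naive kidneys, 1.38% against 18.7% and 0% against 16.2% in the rejecting kidneys, and 1.17% against 17.9% and 1.76% against 14.6% in the tolerized kidneys. The share of 0% is 0 of 115 barcodes, which allows a share of up to 2.61%. Slc34a1 was found in 93.0% to 95.5% of barcodes with Slc5a2 and 83.2% to 87.7% of those without, a ratio of 1.08 to 1.14.

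Barcodes with Slc7a13 held Slc3a1, which encodes the partner subunit rBAT, more often than those without it in 6 of 6 kidneys, at a ratio of 1.32 to 1.99, and Slc7a9, the other light chain that pairs with rBAT, less often in 6 of 6, at 0.445 to 0.736. Slc5a1 was found with Slc7a13 at a ratio of 1.20 to 2.15 in 5 kidneys and 0.809 in the second naive kidney, on few barcodes (1.34% to 4.58% of those with Slc7a13). These pairs come from cells of 1 kidney at a time, at 1000 UMIs each, and are a description.

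**Figure D2:**
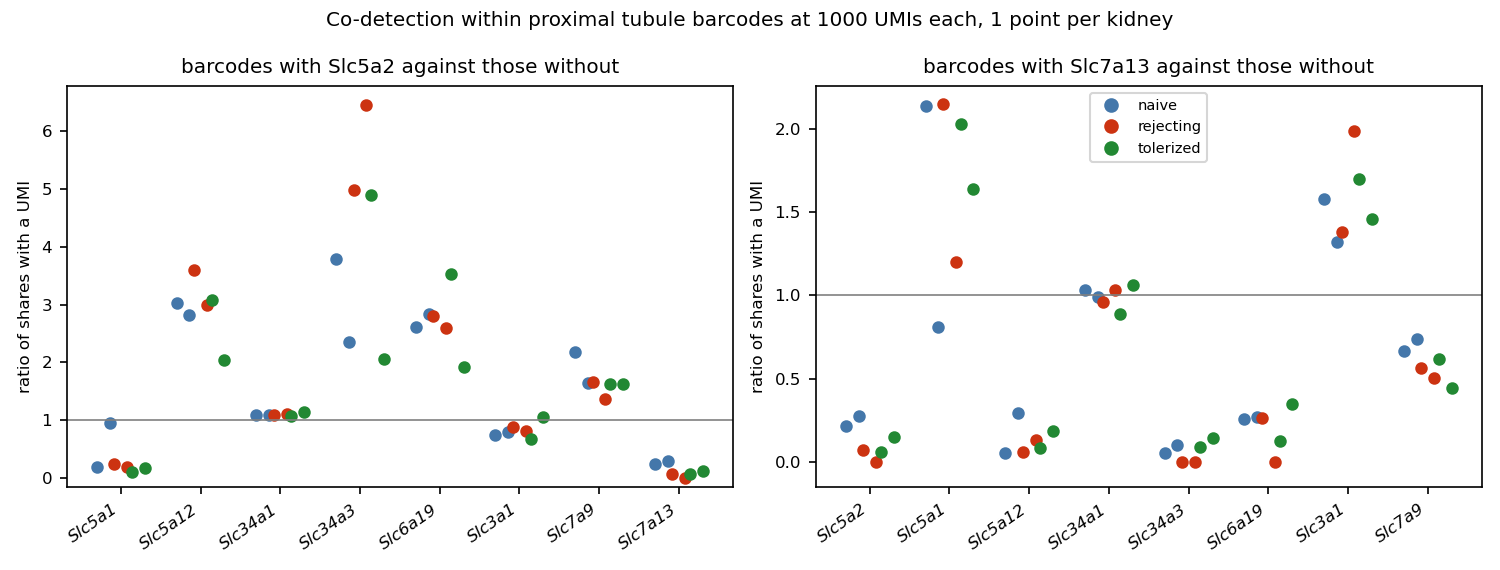
Ratio of the share of barcodes holding each transporter (horizontal axis) among proximal tubule barcodes with Slc5a2 (left) or Slc7a13 (right) to the share among those without, at 1000 UMIs per barcode, 1 point per kidney coloured by group, with a line at 1. Slc5a12, Slc34a3, Slc6a19 and Slc7a9 lie above 1 with Slc5a2 and below 1 with Slc7a13 in every kidney, and Slc9a3 is not drawn.

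The levels in the 3 groups were then compared on UMIs summed per kidney over the proximal tubule barcodes. Values are given as CPM, that is UMIs per 1000000 after scaling with TMM (trimmed mean of M-values), with n = 2 kidneys per group, and differences as log2 fold changes with their standard errors (SE) and false discovery rates (FDR) from edgeR's quasi-likelihood test over all 12598 genes tested. In such sums, fewer barcodes of a tubule segment and less mRNA per cell cannot be told apart. Each group enters 2 of the 3 comparisons, so the comparisons are not independent.

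In rejecting kidneys, 5 of the 10 transporters differed from naive kidneys at an FDR under 0.05, where 33.9% of all genes tested did. Slc9a3 and Slc3a1 were higher (17.7% of all genes were called higher), and Slc7a13, Slc6a19 and Slc34a1 were lower (16.2% of all genes). The count includes Slc9a3, which passed the filter on low counts only through the grafts. With raw totals in place of TMM the balance of calls moved from 2233 higher and 2040 lower genes to 4326 (34.3%) and 1011 (8.03%), and 3 transporters were called higher (Slc9a3, Slc3a1 and Slc5a1) and 2 lower (Slc7a13 and Slc6a19). The median log2 fold change of the 10 was 0.04, and that of all genes 0.01. The groups did not overlap for 3 transporters that were higher (36.3% of all genes) and 4 that were lower (36% of all genes). Fits that left out the first rejecting kidney, or either naive kidney, called fewer of all genes. In them Slc6a19, Slc3a1 and Slc34a1 were no longer called, while Slc9a3 and Slc7a13 were. Without the second rejecting kidney fewer of all genes were called as well, and Slc34a1 was no longer among them. The removal of proximal tubule barcodes with any of 10 leukocyte markers (Cd74 aside) left 86 and 348 barcodes in the rejecting kidneys. In that fit 2380 of 12015 genes were called, in place of 4273 of 12598. Slc34a1 (edgeR FDR = 0.11) and Slc3a1 (edgeR FDR = 0.0769) were no longer called.

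In tolerized kidneys, 2 of the 10 differed from naive kidneys, where 23.3% of all genes did: Slc9a3 was higher (12.4% of all genes called higher) and Slc7a13 lower (10.8% of all genes called lower). Here too Slc9a3 was tested only because it was high in the grafts. With raw totals 2521 genes (20%) were called higher and 831 (6.6%) lower, in place of 1565 and 1366, and 5 transporters higher and 1 lower. The median log2 fold change of the 10 was 0.39, and that of all genes 0.03. DESeq2, which called 25.2% of all genes in this comparison, called 5 of the 10, adding Slc34a3, Slc3a1 and Slc5a12 as higher (FDR = 0.0353, 0.0317 and 0.0467). The groups did not overlap for 5 transporters that were higher (34.6% of all genes) and 2 that were lower (32.4% of all genes).

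Between tolerized and rejecting kidneys, edgeR called 0 of the 10 transporters and 0% of all genes, and 1256 genes had an unadjusted p under 0.05. DESeq2 called 145 genes (1.15%), 1 of them a transporter (Slc6a19), and edgeR with no filter on low counts called 520 genes (2.76% of 18830), 2 of them transporters (Slc6a19 and Slc34a3). The median log2 fold change of the 10 was 0.43, and that of all genes 0.01. The groups did not overlap for 4 transporters that were higher in tolerized kidneys (19.2% of all genes) and 1 that was lower (18% of all genes).

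**Figure D3:**
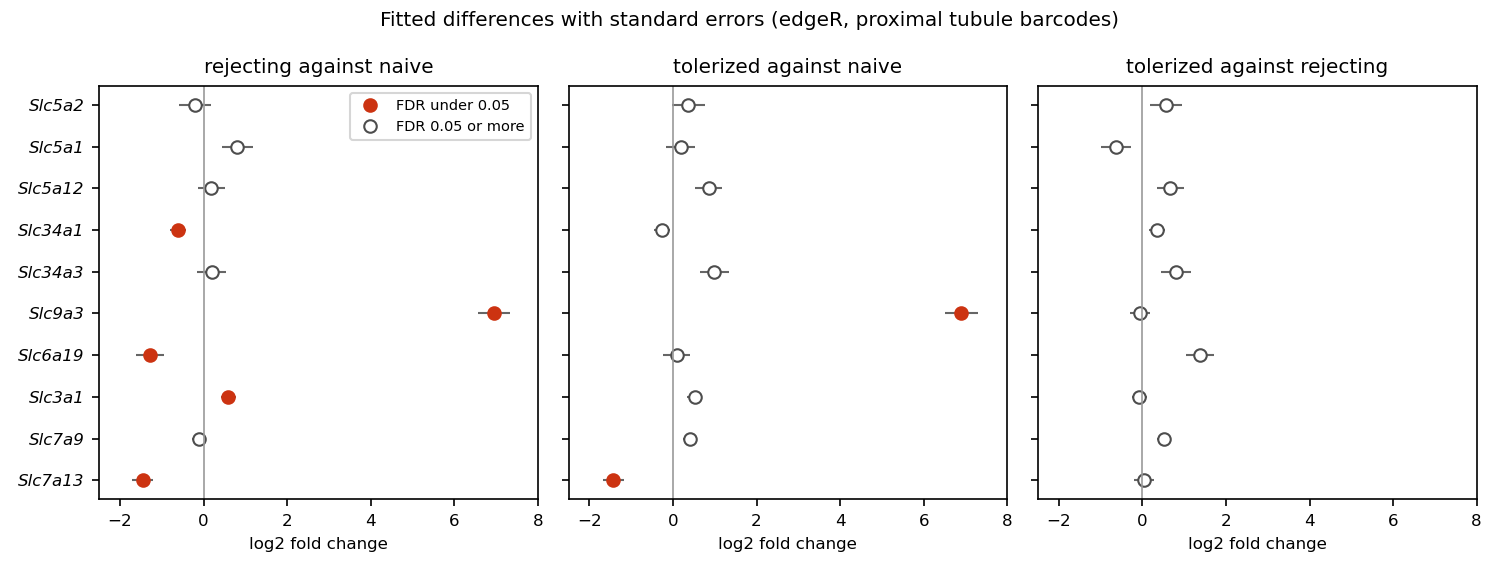
Log2 fold change (horizontal axis) of each transporter in the 3 comparisons, as fitted by edgeR, with bars of 1 SE and filled points at an FDR under 0.05. Slc9a3 and Slc7a13 are filled in both comparisons with naive kidneys, Slc34a1, Slc6a19 and Slc3a1 in rejecting against naive alone, and no point is filled in tolerized against rejecting.

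The glucose and lactate carriers showed no call in any comparison. Slc5a2 (ENSMUSG00000030781; GRCm38 chr7:128265657-128272430, plus strand), the low-affinity, high-capacity carrier SGLT2, had 262 and 237 CPM in the naive, 233 and 199.7 in the rejecting, and 175 and 467 in the tolerized kidneys. The 2 tolerized kidneys were the lowest and the highest of the 6. The log2 fold change of tolerized against naive was 0.37 ± 0.387 (SE, edgeR FDR = 0.529), and it was -0.49 without the second tolerized kidney and 0.91 without the first (FDR = 0.154 and 0.0232). Rejecting against naive gave -0.20 ± 0.387 (edgeR FDR = 0.708), which turned to 0.32 when barcodes over 20% mitochondrial UMIs were left out and to 0.20 with raw totals in place of TMM. Tolerized against rejecting gave 0.57 ± 0.388 (edgeR FDR = 0.721).

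Slc5a1 (ENSMUSG00000011034; chr5:33104219-33162870, plus strand) recovers in the late tubule the glucose that SGLT2 leaves. It had 12.1 and 20.5 CPM in the naive, 24.4 and 32.9 in the rejecting, and 24.2 and 12.6 in the tolerized kidneys, so that the rejecting kidneys were the highest pair. The difference of 0.81 ± 0.363 from naive did not pass (edgeR FDR = 0.119); it passed in barcodes with at most 20% mitochondrial UMIs (1.32, FDR = 0.0136). Tolerized kidneys stood at 0.18 ± 0.355 against naive (edgeR FDR = 0.745) and -0.63 ± 0.352 against rejecting kidneys (edgeR FDR = 0.631).

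Slc5a12 (ENSMUSG00000041644; chr2:110597298-110647779, plus strand), a sodium-coupled carrier of lactate and other monocarboxylates, had 148 and 91.7 CPM in the naive, 110 and 162 in the rejecting, and 163 and 270 in the tolerized kidneys. Both tolerized kidneys lay above both naive kidneys. The log2 fold change was 0.85 ± 0.325 (edgeR FDR = 0.095), 0.46 without the second tolerized kidney and 1.17 without the first (FDR = 0.375 and 0.0449). Rejecting against naive (0.18 ± 0.324, edgeR FDR = 0.693) and tolerized against rejecting (0.67 ± 0.324, edgeR FDR = 0.569) did not pass.

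Of the 2 phosphate carriers, Slc34a1 was lower in rejecting kidneys. Slc34a1 (ENSMUSG00000021490; chr13:55398187-55415592, plus strand), the main phosphate carrier NaPi-IIa, had 3826 and 3364 CPM in the naive, 2476 and 2244 in the rejecting, and 2964 and 3047 in the tolerized kidneys. After TMM scaling the 3 pairs did not overlap, with tolerized kidneys between the others. On raw CPM the tolerized and naive pairs overlapped. Rejecting against naive gave a log2 fold change of -0.61 ± 0.185 (edgeR FDR = 0.0378). This call held in 10 of 20 alternative fits and depended on the scaling: with raw totals, which moved the median of all genes to 0.417, Slc34a1 was at -0.20 (FDR = 0.492), and its raw CPM of 3219 and 2978 in the naive and 2843 and 2557 in the rejecting kidneys lay closer together. Tolerized against naive (-0.26 ± 0.184, edgeR FDR = 0.344) and against rejecting (0.35 ± 0.185, edgeR FDR = 0.602) did not pass.

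Slc34a3 (ENSMUSG00000006469; chr2:25228898-25234364, minus strand), the second phosphate carrier NaPi-IIc, had 35.4 and 31.8 CPM in the naive, 34.9 and 41.9 in the rejecting, and 39.9 and 93.6 in the tolerized kidneys. The second tolerized kidney was over 2-fold above each of the others. Tolerized against naive gave 0.99 ± 0.353 (edgeR FDR = 0.0793), 0.26 without the second tolerized kidney and 1.47 without the first (FDR = 0.42 and 0.00308). The other comparisons gave 0.19 ± 0.357 for rejecting against naive and 0.80 ± 0.353 for tolerized against rejecting (edgeR FDR = 0.707 and 0.512).

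Slc9a3 (ENSMUSG00000036123; chr13:74121457-74169442, plus strand), the main apical exchanger of sodium for protons, had the largest difference of the 10. It had 7 and 1 UMIs in the naive proximal tubule barcodes (0.511 and 0.0963 CPM), 547 and 325 in the rejecting (38.6 and 44.8 CPM), and 1193 and 1609 in the tolerized (35.3 and 44.9 CPM). The pooled raw CPM of the rejecting kidneys was 163 times that of the naive kidneys (95% exact conditional interval of counting error, 82.5 to 379) and that of the tolerized kidneys 142 times (72 to 329). The fitted log2 fold changes were 6.95 ± 0.393 and 6.90 ± 0.391 (edgeR FDR = 3.06e-05 and 3.09e-05), and tolerized against rejecting gave -0.05 ± 0.238 (edgeR FDR = 0.978). Slc9a3 passed the filter on low counts only through the grafts, where it was high. Both calls against naive kidneys also stood in the fit without that filter. This adds no support, because the gene was near 0 in the naive kidneys and that fit leaned more on a spread shared across genes.

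The near absence of Slc9a3 in the naive libraries was not limited to the proximal tubule. Loop of Henle barcodes, where the grafts had 62.6 to 167 raw CPM, held 1 and 0 UMIs in the naive kidneys, where 3 UMIs would be 2.83 and 4.80 raw CPM. At 1000 UMIs per barcode, Slc9a3 was found in 0 of 3036 and 0 of 2431 naive proximal tubule barcodes, which allows shares of up to 0.0988% and 0.123%, and in 3.03% to 5.16% of the graft barcodes. It was 1 of 14 genes under 1 raw CPM in both naive kidneys and over 30 in all 4 grafts, out of 3299 genes over 30 in all grafts. The 3′ end of Exoc3, on the opposite strand, lies 45 bases beyond the annotated end of Slc9a3, and Exoc3 had 19.3 and 15.02 CPM in the naive and 39.5 to 44.7 in the transplanted kidneys. For this gene the strain, the age, the surgery, the gene list of the matrices and the other differences between the libraries cannot be told apart.

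Slc6a19 (ENSMUSG00000021565; chr13:73679745-73704865, minus strand), the carrier B0AT1 of neutral amino acids, was the transporter with the largest difference between the graft groups. It had 228 and 212 CPM in the naive, 66.5 and 115 in the rejecting, and 166 and 302 in the tolerized kidneys. Both rejecting kidneys lay below all others, and the tolerized kidneys lay on either side of the naive kidneys. Rejecting against naive gave -1.28 ± 0.335 (edgeR FDR = 0.022). Tolerized against rejecting gave 1.37 ± 0.335, which did not pass (edgeR FDR = 0.322, unadjusted p = 0.00347); DESeq2 called it (FDR = 0.0133), and edgeR called it without the first tolerized kidney (1.75, FDR = 0.0458) but not without the second (0.87, FDR = 0.693). Tolerized against naive gave 0.09 ± 0.327 (edgeR FDR = 0.869). An antisense gene, Slc6a19os, overlaps it.

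Slc3a1 (ENSMUSG00000024131; chr17:85028376-85064236, plus strand) encodes rBAT, the heavy chain that brings its light chains to the membrane for the uptake of cystine and basic amino acids. It had 169 and 160.0 CPM in the naive, 272 and 225 in the rejecting, and 259.5 and 212 in the tolerized kidneys. All 4 grafts lay above both naive kidneys. Rejecting against naive gave 0.59 ± 0.182 (edgeR FDR = 0.0385), tolerized against naive 0.52 ± 0.181 (edgeR FDR = 0.0744), and tolerized against rejecting -0.07 ± 0.181 (edgeR FDR = 0.947). The gene overlaps Prepl on the opposite strand, and the use of strand in the counting is not given in the sources used here. The same holds for Slc5a2 (BC017158), Slc5a1 (5033423K11Rik and, on its own strand, Gm15936) and Slc34a1 (Pfn3), so reads of these pairs may not be told apart.

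Its light chains differed in pattern. Slc7a9 (ENSMUSG00000030492; chr7:35448796-35466036, plus strand), the light chain of the cystine carrier of the early tubule, had 124 and 109 CPM in the naive, 99.9 and 118 in the rejecting, and 150.4 and 159 in the tolerized kidneys. The tolerized kidneys lay above the other 4. The differences of tolerized kidneys were 0.41 ± 0.167 from naive (edgeR FDR = 0.114) and 0.51 ± 0.168 from rejecting kidneys (edgeR FDR = 0.373, unadjusted p = 0.0166), and rejecting against naive gave -0.10 ± 0.168 (edgeR FDR = 0.673).

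Slc7a13 (ENSMUSG00000041052; chr4:19818725-19842218, plus strand), a light chain of the straight segment known to differ by sex in the mouse, was lower in both graft groups. It had 612 and 527 CPM in the naive, 241 and 171 in the rejecting, and 251.5 and 172 in the tolerized kidneys. All 4 grafts lay below both naive kidneys. The log2 fold changes were -1.46 ± 0.25 in rejecting and -1.43 ± 0.249 in tolerized kidneys (edgeR FDR = 0.00447 and 0.00641), and both calls held in all 20 alternatives fitted for each (FDR from 1.7e-07 to 0.0353 and from 3.58e-07 to 0.0482). Their size did not hold as well: over these fits it ran from -1.73 to -1.06 in rejecting and from -1.73 to -0.70 in tolerized kidneys, the value nearest 0 in tolerized kidneys coming when barcodes over 20% mitochondrial UMIs were left out. Tolerized against rejecting gave 0.04 ± 0.245 (edgeR FDR = 0.987).

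**Figure D4:**
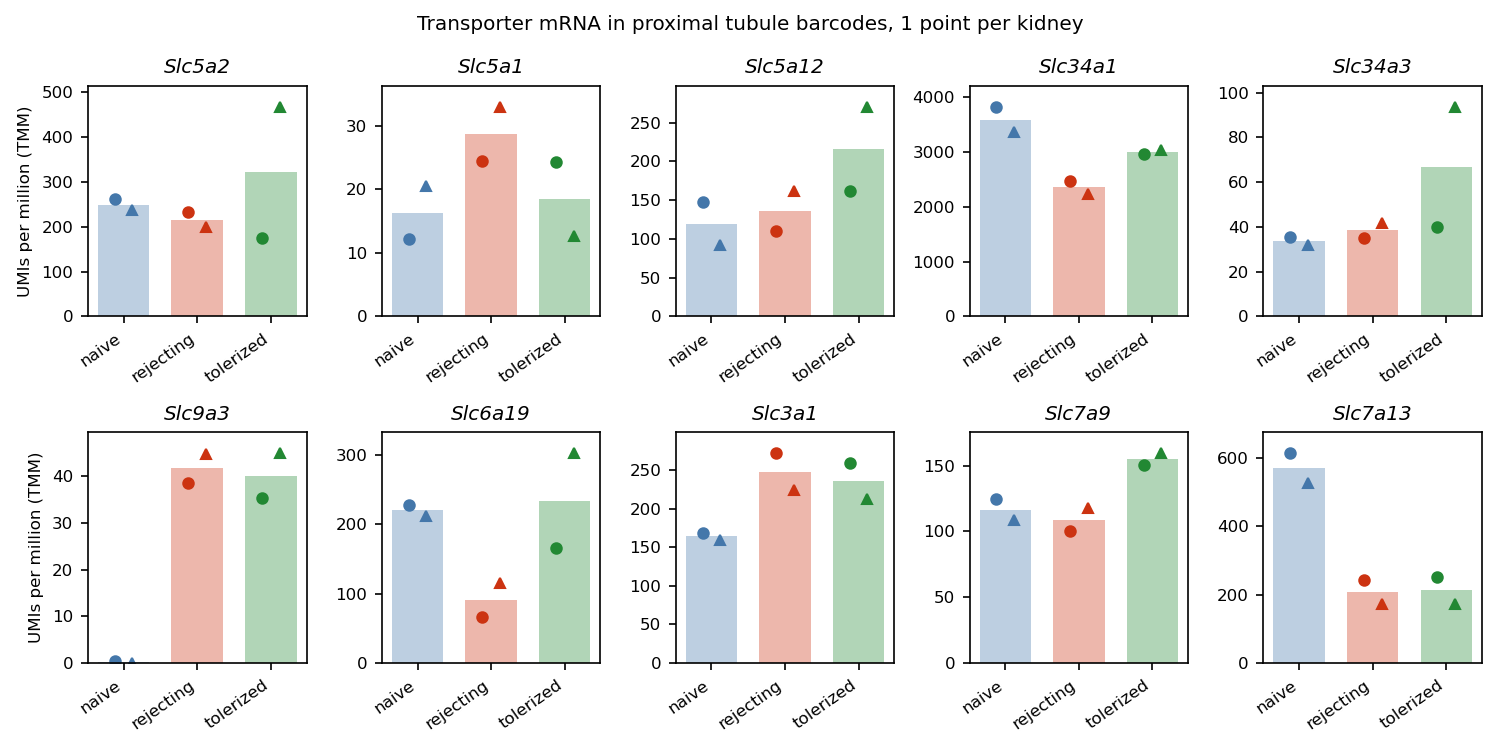
CPM after TMM scaling (vertical axis, from 0) of each transporter in proximal tubule barcodes, with bars for the mean of 2 kidneys, circles for replicate 1 and triangles for replicate 2. Slc7a13 is highest in both naive kidneys, Slc9a3 is near 0 in them, Slc6a19 is lowest in the rejecting kidneys, and the second tolerized kidney is highest for Slc5a2, Slc5a12, Slc34a3 and Slc6a19.

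Genes that sex or tubule position affect were read beside Slc7a13. Of all genes tested, 17.7% were called higher and 16.2% lower in rejecting than in naive kidneys. In tolerized kidneys these shares were 12.4% and 10.8%. Of 2 female-biased genes, both were higher in both graft groups than in naive kidneys. Slc7a12, a transporter of the same family, had 1.82 and 1.44 CPM in the naive, 33.8 and 39.8 in the rejecting, and 68.7 and 12.6 in the tolerized kidneys, a log2 fold change of 4.47 ± 0.806 and 4.62 ± 0.8 (edgeR FDR = 0.00547 and 0.00621). Prlr, the prolactin receptor, rose by 2.11 ± 0.22 and 3.12 ± 0.215 (edgeR FDR = 0.000542 and 8.33e-05). Of 4 male-biased genes, Cyp4b1, a cytochrome P450, and Acsm3, an acyl-CoA synthetase, fell in both graft groups (edgeR FDR from 0.0018 to 0.00719). Cyp4b1 was at -1.28 (rejecting) and -1.37 (tolerized), and Acsm3 at -1.49 (rejecting) and -1.32 (tolerized). Kap and Cyp7b1 did not pass, and their estimates went the other way. Cyp7b1 was at 1.40 (rejecting, edgeR FDR = 0.0652) and 0.90 (tolerized, edgeR FDR = 0.221). Kap was at 0.16 (rejecting, edgeR FDR = 0.727) and 0.51 (tolerized, edgeR FDR = 0.288). Of 5 other genes of the late tubule, 1 rose (Napsa, 1.31, edgeR FDR = 0.0327) and 1 fell (again Acsm3) in rejecting kidneys, and 1 fell (Acsm3) in tolerized kidneys. Of 7 other genes of the early tubule, 0 passed in rejecting and 1 rose in tolerized kidneys (Slc7a7, 1.49). Whether these differences bear on Slc7a13 was not tested.

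The step after apical uptake is exit across the basolateral membrane. Of 11 genes of basolateral exit and driving force, 0 rose and 1 fell in rejecting kidneys (median 0.27), where 17.7% and 16.2% of all genes did. In tolerized kidneys 3 rose and 1 fell (median 0.51), where 12.4% and 10.8% of all genes did. Fxyd2, a small subunit of the sodium pump, had 7094 and 8725 CPM in the naive, 3643 and 3208 in the rejecting, and 4720 and 4644 in the tolerized kidneys, and fell by 1.21 ± 0.206 and 0.76 ± 0.204 on the log2 scale (edgeR FDR = 0.00441 and 0.0326). In tolerized kidneys Slc7a7, the exit path of basic amino acids, rose by 1.49 ± 0.275, and Slc16a10, an exit path of aromatic amino acids, by 1.29 ± 0.346 (edgeR FDR = 0.00794 and 0.0324). In rejecting kidneys Slc7a7 stood at 0.80 (edgeR FDR = 0.0545). None of the 11 passed between tolerized and rejecting kidneys.

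Other transport genes of the proximal tubule, not all of them apical carriers, were called in both directions, as were all genes tested. Of 24 such genes, 23 passed the filter on low counts (Slc36a2 did not). In rejecting kidneys 6 were called higher and 2 lower (median 0.27), where 17.7% and 16.2% of all genes were. In tolerized kidneys 5 were called higher and 1 lower (median 0.10), where 12.4% and 10.8% of all genes were. In rejecting kidneys the largest were Slc10a2, the bile acid carrier (1.71 ± 0.264), Slc26a6, an anion exchanger (-1.51 ± 0.336), Slc5a8, a monocarboxylate carrier related to Slc5a12 (-1.27 ± 0.27), and Slc20a1, a phosphate carrier of another family (1.14 ± 0.35; edgeR FDR from 0.00296 to 0.0393 for the 4). In tolerized kidneys they were Slc5a8 (-1.31 ± 0.269), Slc10a2 (1.16 ± 0.259), Slc26a1, a sulphate carrier (0.97 ± 0.19), and Slc23a1, a vitamin C carrier (0.84 ± 0.223; edgeR FDR from 0.0101 to 0.0312). Slc5a8 had 202 and 252 CPM in the naive kidneys and 66.9 to 117 in the 4 grafts. None of the 23 passed between tolerized and rejecting kidneys.

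The last list held partners, scaffolds and regulators of the carriers. Of its 15 genes, 0 rose and 6 fell in rejecting kidneys (median -0.52), where 17.7% of all genes were called higher and 16.2% lower (median 0.01). In tolerized kidneys 0 rose and 1 fell (median -0.25), where 12.4% and 10.8% of all genes did (median 0.03). Tmem27, the collectrin that brings B0AT1 to the apical membrane, had 2356 and 2079 CPM in the naive, 898 and 1229 in the rejecting, and 1352 and 1659 in the tolerized kidneys. It fell by 1.06 ± 0.222 in rejecting kidneys (edgeR FDR = 0.00984) and stood at -0.56 ± 0.22 in tolerized kidneys (edgeR FDR = 0.104). Slc9a3r2, a PDZ scaffold of NHE3, was at -1.75 ± 0.464, and Pdzk1ip1, a partner of the PDZ scaffold Pdzk1, at -0.85 ± 0.193 in rejecting kidneys (edgeR FDR = 0.0233 and 0.0136). Fgfr1, a receptor for the phosphate hormone FGF23, was the gene that fell in tolerized kidneys (-0.96 ± 0.248, edgeR FDR = 0.0281). It was also 1 of the 6 that fell in rejecting kidneys (-0.79 ± 0.258, edgeR FDR = 0.0469). Hnf4a, a transcription factor of the proximal tubule, stood at 0.03 and 0.01 and did not pass in either comparison. With 0 of 15 called between tolerized and rejecting kidneys, the change of Tmem27 was not shown to differ between the graft groups (0.50 ± 0.22, edgeR FDR = 0.507).

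Some tubular injury genes were higher in the grafts. Of 9 such genes, 4 rose and 1 fell (Cd24a) in rejecting kidneys (median 1.19), where 17.7% and 16.2% of all genes did. In tolerized kidneys 3 rose and 0 fell (median 1.27), where 12.4% and 10.8% of all genes did. Havcr1, the injury marker KIM-1, had 0.146 and 0.674 CPM in the naive, 20.8 and 42.8 in the rejecting, and 36.2 and 6.00 in the tolerized kidneys. Its naive UMIs numbered only 2 and 7, and it passed the filter on low counts only through the grafts, where it was high. Vcam1, an adhesion molecule, had 2.55 and 2.02 CPM in the naive, 69.2 and 53.9 in the rejecting, and 37.7 and 17.8 in the tolerized kidneys. Their log2 fold changes were 6.36 ± 1.14 and 4.74 ± 0.414 in rejecting kidneys (edgeR FDR = 0.0054 and 0.00023) and 5.78 ± 1.14 and 3.58 ± 0.403 in tolerized kidneys (edgeR FDR = 0.0103 and 0.000894). In the second tolerized kidney, which was highest for Slc5a2, Slc34a3, Slc5a12 and Slc6a19, these 9 genes stood both low and high. It had the lowest Havcr1, Vcam1, Krt8 (100.6 CPM) and Lcn2 (1.31 CPM) of the grafts. Its Sox9 (0.279 CPM, 10 UMIs) was level with that of the first rejecting kidney (0.282 CPM, 4 UMIs). Clu (clusterin) in the second tolerized kidney was the highest of the 6 kidneys (150.8 CPM against 16.5 to 46.2). Its Cd24a was the highest of the grafts (18.3 CPM) and its Spp1 (osteopontin) the second highest of the 6 (1736 CPM). Of 11 leukocyte markers, 10 were called higher in rejecting and 1 (Cd74) in tolerized kidneys than in naive kidneys, against 17.7% and 12.4% of all genes. Of the 10, Cd3d, Cd3e, Trbc2 and Nkg7 held at most 10 UMIs in each naive kidney and passed the filter only through the grafts. The first rejecting kidney, with the lowest Slc6a19, had the most Lyz2 (179 CPM against 8.61 to 48.5 in the other 5). The part of injury and of leukocyte RNA in the transporter differences was not tested.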

How the data were processed

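Single-cell RNA (10x) of 6 mouse kidneys was analysed. The deposited matrices hold raw UMI counts per gene and barcode, made by the authors with Cell Ranger on mm10, as the submitters' processing notes name them. The matrix headers of the transplanted kidneys name version 3.0.1, and those of the naive kidneys name none. The counter's strand setting is not given in the sources used here.

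Barcodes under 500 UMIs or 250 genes, or over 50% mitochondrial, were left out. The lowest total kept was 1538 and 1342 UMIs in the naive and 500 to 502 in the other kidneys. Doublets were called with Scrublet (scanpy 1.11.5), as the highest scores at 0.8% per 1000 barcodes, and left out. The 28208 shared genes were used. UMIs of proximal tubule barcodes were summed per kidney and fitted with edgeR 4.0.16 in R 4.3.3 (filterByExpr, TMM, quasi-likelihood test, Benjamini-Hochberg over 12598 genes, FDR 0.05, all 6 kidneys in 1 fit), with DESeq2 1.42.0 as an alternative. Other alternatives were other size factors, raw totals, no filter, a replicate block, other limits on barcodes, doublets kept, thinning, and each kidney left out. SEs come from the fold change and the test statistic. Against other segments, an exact sign-flip test over 6 kidneys was used. With 2 kidneys against 2, an exact permutation test of single values cannot go below 0.3333.

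Transporters were named in every comparison. Of the 3 lists of other transport genes, basolateral exit, and partners and regulators, up to 4 called genes with the largest change were named per comparison. All genes of the marker lists, and Hnf4a, Slc36a2 and Exoc3, were named after their values were seen. Some genes of the lists are counted but not reported here by name. The transporters and lists were chosen with earlier results of these data known. Gene positions are from GENCODE vM21 (GRCm38). Intervals cover counting error only. Depth per kidney was 34874702 to 96803926 UMIs.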

Additional observations from a re-analysis of the deposited data

How the results depend on the processing

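Each of the 20 alternatives fitted per comparison (21 for tolerized against rejecting kidneys) changed 1 choice, except that DESeq2 also brought its own size factors. Slc9a3 and Slc7a13 stayed called against naive kidneys in all 20, for both graft groups. For Slc9a3 this adds no support, because it was near 0 in the naive kidneys and passed the filter on low counts only through the grafts. Of the other calls in rejecting against naive kidneys, Slc6a19 held in 17, Slc3a1 in 15 and Slc34a1 in 10 of 20. Genes called in rejecting against naive kidneys (4273) fell to 1172 when the rule was applied after thinning to 1000 UMIs and to 2380 without barcodes holding leukocyte markers other than Cd74, where 3 transporters were called in place of 5; leaving out 1 kidney gave 1800 to 4480 genes and 2 to 6 transporters. In tolerized against naive kidneys (2931) thinning gave 952 genes; in place of 2 transporters, DESeq2 called 5 (with 3171 genes), no filter 5 (3696 of 18830 genes), raw totals 6 (3352), the removal of leukocyte-marker barcodes 4 (2567 of 12015) and at most 20% mitochondrial UMIs 3 (2612 of 11680); leaving out 1 kidney gave 979 to 2920 genes and 2 to 5 transporters. In tolerized against rejecting kidneys (0) DESeq2 called 145 genes and 1 transporter, no filter 520 and 2, and thinning 8 genes; leaving out 1 kidney gave 0 to 153 genes and 0 to 2 transporters, the most without the first tolerized kidney. Raw totals moved the share of genes higher in rejecting than naive kidneys from 50.6% to 70.1%, and in tolerized than naive from 52.1% to 65.7%; in tolerized against rejecting it went from 50.9% to 28.1%. The median share of barcodes with a transporter was 12.5% thinned and 36.6% unthinned.

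Signs turned only for transporters that were not called. In rejecting against naive kidneys, raw totals gave Slc5a2 0.20 and Slc7a9 0.31, at most 20% mitochondrial UMIs gave Slc5a2 0.32, thinning gave Slc5a12 -0.44 and Slc34a3 -0.44, and the removal of leukocyte-marker barcodes gave Slc7a9 0.12. In tolerized against naive kidneys thinning gave Slc6a19 -0.04. In tolerized against rejecting kidneys, at most 20% mitochondrial UMIs gave Slc5a2 -0.21 and Slc9a3 0.03, raw totals gave Slc7a13 -0.13, the removal of leukocyte-marker barcodes gave Slc9a3 0.03 and Slc7a13 -0.09, a limit of 1 UMI of Lrp2 plus Cubn gave Slc7a13 -0.01, and thinning gave Slc9a3 0.22 and Slc7a13 -0.08. A group left with 1 kidney was assumed to vary like the others. Leaving out 1 kidney gave Slc5a12 -0.13 to 0.60 and Slc7a9 -0.23 to 0.03 in rejecting against naive, Slc5a2 -0.49 to 0.91, Slc5a1 -0.37 to 0.62 and Slc6a19 -0.39 to 0.46 in tolerized against naive, and Slc5a2 -0.32 to 1.11, Slc9a3 -0.25 to 0.11, Slc3a1 -0.22 to 0.08 and Slc7a13 -0.26 to 0.31 in tolerized against rejecting. The cause of these changes was not tested.

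With the replicate number as a block, 3889, 2550 and 0 genes and 4, 2 and 0 transporters were called in the 3 comparisons, and the call on Slc34a1 in rejecting kidneys was lost (FDR = 0.0612). Same-numbered kidneys did not deviate together (r across genes -0.11, -0.01 and -0.03), so the numbers were not used as a pairing. The study names 2 experiments, and no label ties a replicate number to either, so a shift between experiments was not tested. Removal of barcodes with 2 or more UMIs of leukocyte, loop of Henle, distal, collecting duct or endothelium markers was planned but left 2 and 15 barcodes in the rejecting and 10 and 9 in the tolerized kidneys and was not fitted; the removals without leukocyte markers or without Cd74, and the raw totals, were chosen after seeing the data.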
